A study of Mus musculus with 22 samples.

Results

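Endothelial cells line every vessel of the lung, and 39 genes that these cells are known to express were followed in mouse lung after exposure to Mitsui7, a long and rigid multiwalled carbon nanotube. They were taken by name from a list covering junction and surface proteins, receptors for vascular growth factors, vasoactive ligands and receptors, transcription factors, and the molecules that catch leukocytes and platelets at the vessel wall. All 39 of 39 were on the array and 38 were above background, out of 20018 genes named through a RefSeq accession, of which 16436 were above background. Prox1, a transcription factor of lymphatic vessels, was the member below background. Where a gene had several probes, the one with the highest mean log signal over lung and reference RNA was used.

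The animals were female C57BL/6 mice, 8 weeks old at the start, each given a single intratracheal instillation. The control group (n = 5) received the vehicle, saline with 10% lavage fluid from other mice, and the exposed groups received 18 µg (n = 6), 54 µg (n = 5) or 162 µg (n = 6) of Mitsui7 in that vehicle. RNA of the right lung was taken 24 h later, labelled with Cy5 and hybridised against 1 reference RNA from 11 mouse cell lines in Cy3. Values below are log2 ratios of lung to that reference, and a change is a difference of these ratios from the controls on the log2 scale, estimated with dose and slide as terms. Each sample is lung tissue of 1 mouse, so that fewer endothelial cells and less RNA per cell cannot be told apart, and the 3 doses were compared with the same control mice.

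Blood vessels grow and stay quiet under a small number of signals. Vascular endothelial growth factors act on the receptors Kdr, Flt1 and Flt4, angiopoietins act on Tek, and apelin acts on its own receptor, Aplnr. In inflammation, the endothelium displays the selectins P-selectin (Selp) and E-selectin (Sele), which slow passing leukocytes, and Vcam1 and Icam1, which hold them through their integrins. P-selectin is kept ready in granules with von Willebrand factor (Vwf), while E-selectin is made after a stimulus.

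The promoters of Apln, Selp, Sele and Kdr, the genes described first, are shown here from the RefSeq table (build GRCm38.p6). A promoter was used for 19 of the 39 members. Member promoters on a single chromosome were left out, while the shares over all promoters below include it. Each sequence holds the 250 bases before the start site, 5′ to 3′ on the strand of the gene. Capitals mark matches, on either strand, to the binding motifs of AP-1 (TGANTCA), ETS (AGGAAG) and SOX (ACAATG or ACAAAG) factors or to the NF-kB consensus, and no 2 of the matches shown overlap. Apln lies on the minus strand at chrX:48034854-48035103, Selp on the plus strand at chr1:164115014-164115263, Sele on the plus strand at chr1:164047984-164048233 and Kdr on the minus strand at chr5:75978456-75978705.
Apln: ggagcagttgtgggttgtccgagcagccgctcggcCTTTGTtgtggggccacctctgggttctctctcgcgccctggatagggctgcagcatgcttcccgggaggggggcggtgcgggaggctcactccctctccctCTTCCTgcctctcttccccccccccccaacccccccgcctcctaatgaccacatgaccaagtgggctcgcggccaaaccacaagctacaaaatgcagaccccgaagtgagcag
Selp: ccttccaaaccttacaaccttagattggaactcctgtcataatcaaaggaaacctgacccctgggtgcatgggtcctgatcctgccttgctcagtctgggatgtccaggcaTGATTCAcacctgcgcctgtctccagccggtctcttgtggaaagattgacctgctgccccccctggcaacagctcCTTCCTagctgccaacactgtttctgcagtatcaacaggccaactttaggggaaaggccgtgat
Sele: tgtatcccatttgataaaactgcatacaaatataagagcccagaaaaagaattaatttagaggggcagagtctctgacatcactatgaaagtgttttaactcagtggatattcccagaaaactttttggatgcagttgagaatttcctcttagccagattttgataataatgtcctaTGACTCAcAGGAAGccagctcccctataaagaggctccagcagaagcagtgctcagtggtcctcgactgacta
Kdr: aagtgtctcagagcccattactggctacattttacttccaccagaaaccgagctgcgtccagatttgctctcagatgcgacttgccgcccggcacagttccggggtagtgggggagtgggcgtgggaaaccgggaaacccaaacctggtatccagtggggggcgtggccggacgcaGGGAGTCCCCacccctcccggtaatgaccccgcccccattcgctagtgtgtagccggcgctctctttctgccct

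Both selectin promoters held an AP-1 match and an ETS match. In Sele these began at 73 and 65 bases before the start site, and in Selp at 139 and 64 bases before it. Over the 32851 promoters of the table, cut to the same length, an AP-1 match was found in 6.75% and an ETS match in 29.5%. Apln had an ETS match at 113 and a SOX match at 215 bases before the start site, and the SOX motif ACAAAG stood in 16.5% of all promoters. Kdr had a match to the NF-kB consensus at 74 bases, as did 7.25% of all promoters. Of the 19 members with a promoter, 2 held an AP-1 match, 12 an ETS match, 3 an NF-kB match and 3 the SOX motif ACAAAG. The SOX motif ACAATG was found in 1 of the 19 (10.7% of all promoters), the GATA motif AGATAA in 0 (9.99%), the KLF motif GGGTGTGG in 2 (3.2%) and the short core ACGTG of hypoxia response elements in 1, Clec14a (16.6%). A match is only a stretch of letters, and binding was not measured.

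Between 52.1% and 83.5% of all probes were above the negative control spots on the 22 arrays, and the 4 arrays with the lowest shares lay on the 2 slides, of 7, that held no control. In 1 control library, control replicate 2, the median of 9 neutrophil markers was 1.78 above the control mean while the other 4 controls lay between -0.61 and -0.26, and its platelet markers were 1.11 above. Calls of members and related genes against the controls are therefore also given without it. In the controls the mean ratio of the 38 members was above the reference, with a median of 3.77 on the log2 scale against 0.08 for all genes. Among them Sele was well above background on 0 of 5 control arrays, so its mean ratio of 0.07 there is not a measured level. The defining endothelial genes Pecam1 and Cdh5 were well above background on all 22 arrays.

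At 18 µg 1 of the 38 members was called, at 54 µg 0, and at 162 µg 2. A call needed a change of 1.5-fold or more and an adjusted p no higher than 0.05 in limma, with Benjamini-Hochberg adjustment over all 55681 probes. The member called at 18 µg, Kdr, was higher, where 0.633% of all genes above background were called higher and 1.43% lower. At 54 µg, where 0 members were called, 0.219% of all genes were called higher and 0.134% lower, and at an unadjusted p under 0.05 4 members were higher and 1 lower. Among the higher members was Sele, which passed the filter on background only through this dose. At 162 µg, Selp was called higher and Apln lower, against 3.32% and 3.52% of all genes. With 1 member of 38 called in each direction, the members' share at 162 µg was near that of all genes.

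Most members had small changes. From the lowest to the highest dose, the median change of the 38 was 0.11, 0.08 and 0.07, and that of all 16436 genes was -0.02, -0.01 and -0.01. Above 0 were the changes of 31 of the 38 at 18 µg, 26 at 54 µg and 22 at 162 µg, whether or not they passed the test, but at 18 µg and 162 µg the direction rests on the scaling, since under median centring of the arrays the members' median was -0.20 and -0.16, where that of all genes was -0.26 and -0.18. An unadjusted p under 0.05 was found for 3, 5 and 11 of the 38 (7.89%, 13.2% and 28.9%), against 22.3%, 13.8% and 28.8% of all genes. The standard error of a member's change was 0.21, 0.23 and 0.21 in the median. The 95% interval of the change lay within 2-fold of the controls for 36, 29 and 33 of the 38, and within 1.5-fold for 13, 12 and 8, so that a change of 1.5-fold in one direction or the other lay inside the interval of most members.

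**Figure D1:**
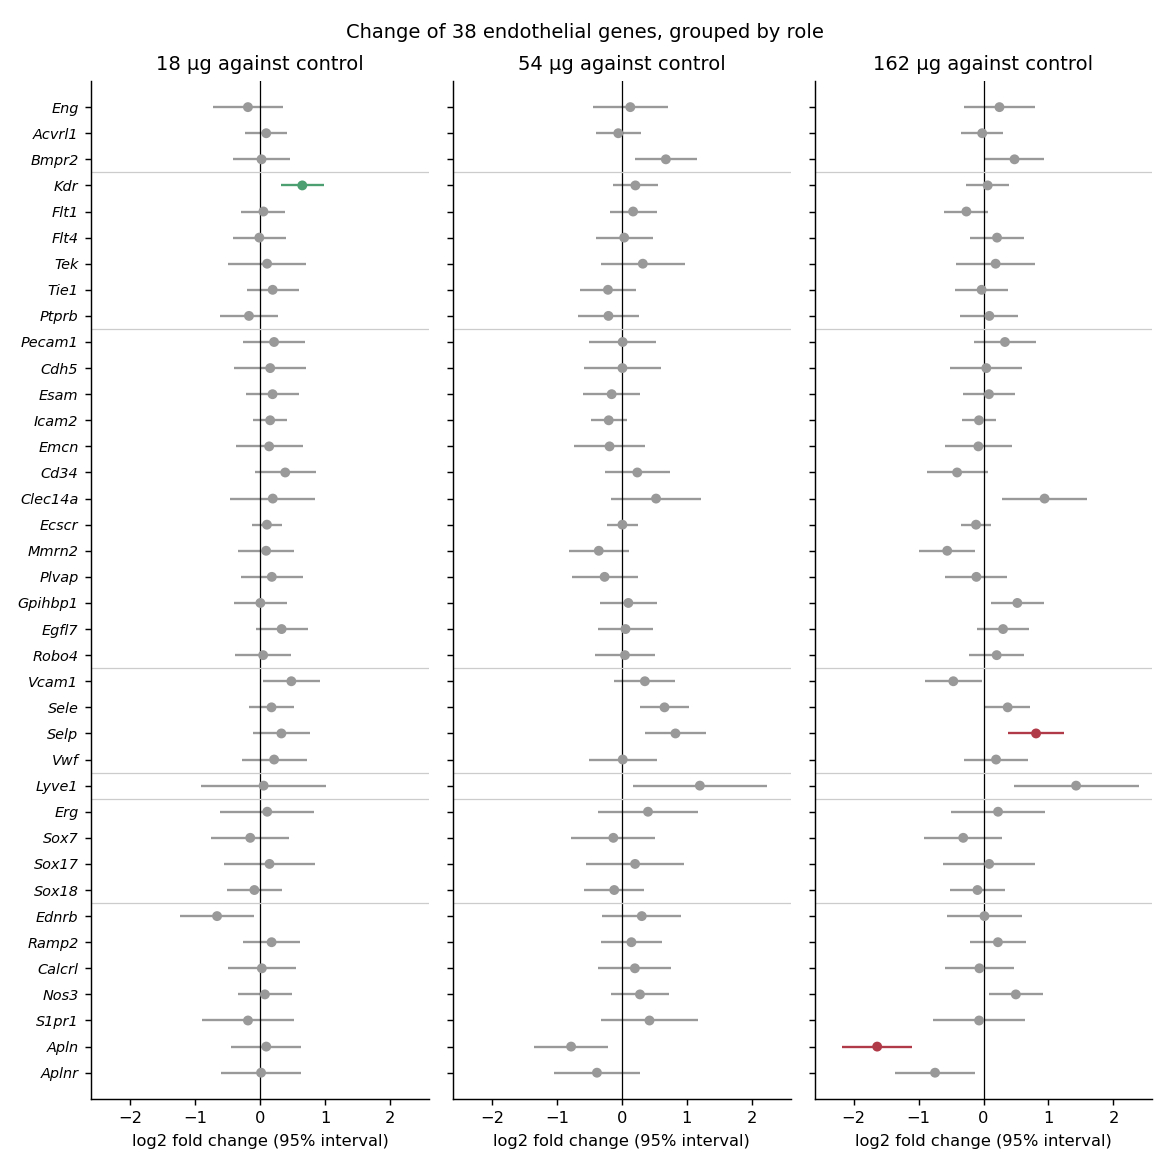
Change of each of the 38 members above background from the control mice, on the log2 scale, at the 3 doses, by role. Points are limma estimates and lines their 95% intervals. The calls are Kdr at 18 µg and Selp and Apln at 162 µg.

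**Figure D2:**
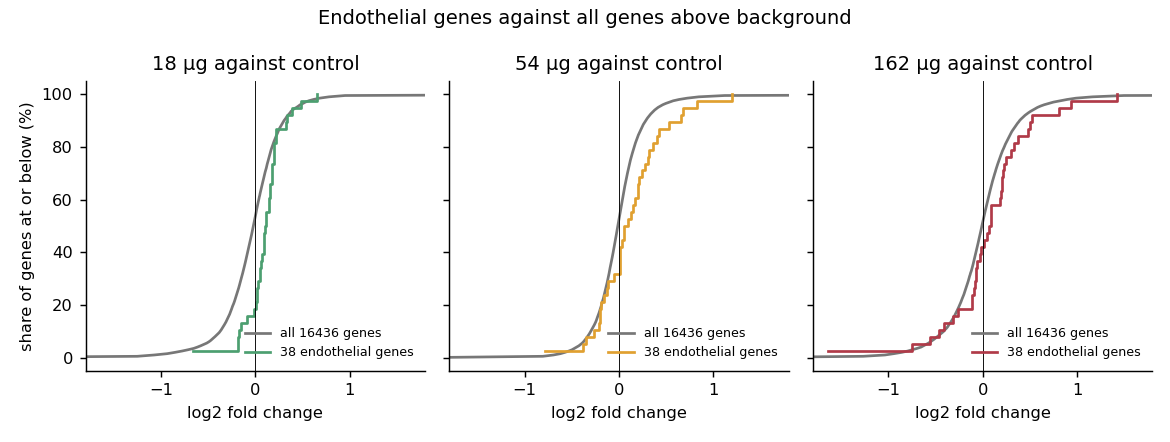
Cumulative share of genes (percent) at or below each log2 fold change from control, for the 38 members and for all 16436 genes above background. The median of the members is 0.11, 0.08 and 0.07 at the 3 doses and that of all genes -0.02, -0.01 and -0.01.

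Apelin was the member with the largest change. Its gene, Apln, encodes a peptide made by growing endothelium that relaxes vessels and acts on the receptor Aplnr. In the 5 control mice the log2 ratio of Apln was 0.75, 0.92, 1.17, 0.37 and 0.15. At 18 µg the lowest, median and highest of 6 mice were 0.34, 0.65 and 1.11. The 18 µg mice thus lay among the controls. The 5 mice given 54 µg had 0.46, -0.15, -1.22, 0.31 and -0.36, and the 6 given 162 µg had a lowest value of -1.33, a median of -1.18 and a highest of -0.52. Of the mice given 54 µg 3 of 5 lay below all controls. At 162 µg 6 of 6 did, without overlap, and all mice at this dose lay below all controls for 4.49% of all genes. The change at 18 µg was 0.10 (SE 0.26, limma adjusted p = 0.913), that at 54 µg was -0.78 (SE 0.27, adjusted p = 0.36) and that at 162 µg was -1.64 (SE 0.26, adjusted p = 0.00126), where Apln fell 3.11-fold. On each of the 4 slides that held both a control and a 162 µg mouse the difference was negative, from -2.49 to -1.42. Without control replicate 2 the change at 162 µg was -1.57 (adjusted p = 0.00512), and the call at 162 µg was kept when any 1 of the 22 mice was left out.

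The apelin receptor, Aplnr, had a change of -0.75 (SE 0.29, limma adjusted p = 0.166) at 162 µg, after 0.02 at 18 µg and -0.38 at 54 µg, and it was not called. Below all controls lay 2 of 6 mice given 162 µg, and the groups overlapped.

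P-selectin was called higher at 162 µg, with a change of similar size at 54 µg that was not called. The log2 ratio of Selp was 0.18, 0.52, 0.02, 0.21 and -0.05 in the controls, and its lowest, median and highest at 18 µg were 0.20, 0.52 and 0.69. The mice given 54 µg had 0.79, 1.24, 0.30, 0.97 and 1.74, and those given 162 µg had a lowest value of 0.68, a median of 0.98 and a highest of 1.31. Above all controls lay 3 of 6 mice at 18 µg, 4 of 5 at 54 µg and 6 of 6 at 162 µg, as all mice did in the higher direction for 3.72% of all genes at 162 µg. The change at 18 µg was 0.33 (SE 0.21, limma adjusted p = 0.494), followed by 0.83 (SE 0.22, adjusted p = 0.171) at 54 µg and 0.81 (SE 0.21, adjusted p = 0.0258) at 162 µg, a rise of 1.75-fold at the last. On each of the 4 slides that held both groups it was above 0, from 0.45 to 1.16. The call was lost when control replicate 3, 4 or 5, or 162 µg replicate 1, 2 or 5 was left out, with changes of 0.71 to 0.92 over all 22 such fits, and it was kept without control replicate 2 (0.92, adjusted p = 0.0257). Median centring, no normalization, the authors' deposited log2 table and a 2-fold limit also lost the call at 162 µg. Without 54 µg replicate 3, Selp was also called at 54 µg (1.01, adjusted p = 0.0161). Platelets carry P-selectin as well. The median of 7 platelet markers against the control mean ran from -0.43 to 1.11 in the controls and from -0.71 to 0.58 at 162 µg, where 4 of 7 were higher and 0 called in limma, with 1 at an unadjusted p under 0.05, and its part in the change of Selp was not tested.

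E-selectin had a weak signal. The scanner software found Sele well above background on 0 of 5 control arrays, 0 of 6 at 18 µg, 4 of 5 at 54 µg and 1 of 6 at 162 µg. It passed the filter on background only through the 54 µg group, with 4 of 5 arrays above the negative controls. The log2 ratio of Sele in that group was 0.64, 0.92, 0.11, 0.47 and 1.01. Against controls at background no fold can be measured, so a limit was set from the lowest signal that was well above background on each control array. On the Cy5 channel normalized between arrays, which is open to dye bias, the mean of all 5 arrays at 54 µg was 1.51-fold that limit. Since Sele passed the filter through this same group, the value is a description and not a test. The limit was not used at 162 µg, where 1 of 6 arrays measured the probe. Sele was not called, with limma adjusted p of 0.173 at 54 µg and 0.237 at 162 µg.

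Von Willebrand factor, which shares granules with P-selectin, had changes of 0.22 (SE 0.24, limma adjusted p = 0.738), 0.01 (SE 0.25, adjusted p = 0.997) and 0.19 (SE 0.23, adjusted p = 0.772) over the 3 doses, none of which passed the test. The outlier spot of 18 µg replicate 4 was left out of these values.

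Kdr, the main signalling receptor of vascular endothelial growth factor, rose at the lowest dose on 1 of its 2 probes. Its log2 ratio was 0.55, -0.09, 0.32, -0.11 and 0.40 in the controls and had a lowest value of 0.43, a median of 0.90 and a highest of 1.60 at 18 µg. The mice given 54 µg had 0.70, 0.38, 0.42, 0.94 and 0.52, and those given 162 µg had a lowest, median and highest of -0.01, 0.39 and 0.60. Above all controls lay 5 of 6 mice at 18 µg, 2 of 5 at 54 µg and 2 of 6 at 162 µg. The change at 18 µg was 0.65 (SE 0.16, limma adjusted p = 0.0479), followed by 0.21 (SE 0.17, adjusted p = 0.82) at 54 µg and 0.06 (SE 0.16, adjusted p = 0.909) at 162 µg, a rise of 1.57-fold at 18 µg. On each of the 4 slides with both groups it was positive, from 0.21 to 0.83. Of 22 fits that each omitted 1 mouse, 17 did not call Kdr, among them every fit that omitted a control or an 18 µg mouse, and without control replicate 2 the change was 0.66 (adjusted p = 0.0645). The second Kdr probe, which was the brighter of the 2 in Cy5, had a change of 0.13 (SE 0.19, limma adjusted p = 0.818) at 18 µg.

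**Figure D3:**
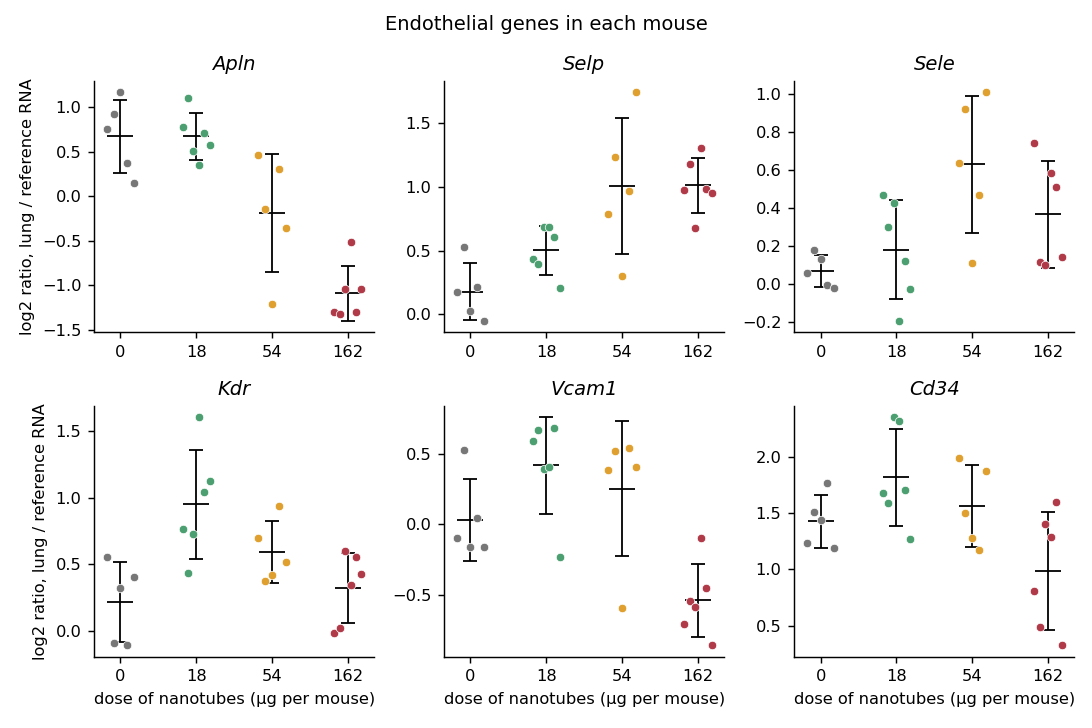
Log2 ratio of lung to reference RNA in each mouse for 6 members, by dose in µg per mouse (0 is the vehicle control). Points are mice, and bars the mean and standard deviation (n = 5, 6, 5 and 6). The 6 mice given 162 µg lie below all controls for Apln and above all controls for Selp.

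The other receptors of vascular growth factors were not called at any dose, and 0 had an unadjusted p under 0.05 in limma. Flt1, a receptor that binds the growth factor with little signalling of its own, had changes of 0.05, 0.17 and -0.26, and Flt4, the receptor of lymphatic vessels, of -0.01, 0.04 and 0.21. Flt4 was well above background on 4 of 5 control arrays, 5 of 6 at 18 µg and 5 of 6 at 162 µg. Tek, the angiopoietin receptor, had changes of 0.11, 0.32 and 0.19, its partner Tie1 of 0.19, -0.21 and -0.03, and Ptprb, a phosphatase that holds Tek in check, of -0.17, -0.21 and 0.09.

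Of the 13 junction and surface proteins, 0 were called at any dose in limma, and at an unadjusted p under 0.05 there were 0 at 18 µg, 0 at 54 µg and 3 at 162 µg. At 18 µg the change was above 0 for 13 of 13, with a median of 0.16, a direction that the median centring above does not keep for the members as a whole. The adherens junction cadherin Cdh5 had changes of 0.16, 0.01 and 0.04 over the 3 doses, Pecam1, which joins endothelial cells and takes part in leukocyte passage, of 0.22, 0.01 and 0.33, Esam of 0.19, -0.16 and 0.08 and Icam2, a ligand of leukocyte integrins, of 0.16, -0.20 and -0.07. Emcn, a sialomucin of veins and capillaries, had changes of 0.14, -0.19 and -0.08, the guidance receptor Robo4 of 0.05, 0.05 and 0.20, Egfl7, a secreted protein of the vessel matrix, of 0.33, 0.06 and 0.30, and Ecscr of 0.11, 0.01 and -0.12. Plvap, which forms the diaphragms of fenestrae and caveolae, had changes of 0.18, -0.26 and -0.11. Their standard errors ran from 0.11 for Ecscr at 18 µg to 0.28 for Cdh5 at 54 µg.

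Clec14a, a lectin of the endothelial surface, and Mmrn2, the matrix protein that binds it, had the largest changes of these 13 at 162 µg and lay on opposite sides of 0. In the controls Clec14a was 3.54, 3.53, 4.06, 2.98 and 2.84, and in the mice given 162 µg its lowest, median and highest values were 3.01, 4.15 and 5.27. Above all controls lay 4 of 6, and the groups overlapped. The change of Clec14a was 0.94 (SE 0.31, limma adjusted p = 0.0885) at 162 µg, and 0.49 (SE 0.22, adjusted p = 0.243) on its second probe. For Mmrn2, with 3 of 6 mice below all controls, it was -0.56 (SE 0.20, adjusted p = 0.132). Gpihbp1, which anchors lipoprotein lipase in capillaries, had a change of 0.52 (SE 0.19, adjusted p = 0.142). These 3 were not called, but each was called when 1 mouse was left out, Clec14a without 18 µg replicate 4 (0.82, adjusted p = 0.035) or 162 µg replicate 5 (1.17, adjusted p = 0.033), Mmrn2 without 162 µg replicate 3 (-0.73, adjusted p = 0.045) and Gpihbp1 without 162 µg replicate 5 (0.67, adjusted p = 0.0457).

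The 3 BMP and TGF-beta receptors, through which circulating BMP9 keeps vessels quiet, were not called at any dose in limma. Bmpr2, the receptor gene linked to pulmonary arterial hypertension, had log2 ratios of 1.65, 2.23, 3.00, 2.29 and 2.88 in the controls, a lowest, median and highest of 1.66, 2.45 and 2.81 at 18 µg, and 2.51, 3.29, 3.42, 3.33 and 2.79 at 54 µg. At 162 µg it was 3.16, 3.35, 2.85, 2.80 and 2.75 in 5 mice, since the outlier spot of 162 µg replicate 4 was left out. Above all controls lay 0 of 6 mice at 18 µg, 3 of 5 at 54 µg and 2 of 5 at 162 µg. The change was 0.68 (SE 0.22, limma adjusted p = 0.326) at 54 µg and 0.48 (SE 0.21, adjusted p = 0.25) at 162 µg. Eng, a co-receptor, had changes of -0.19, 0.13 and 0.25 and the type I receptor Acvrl1 of 0.09, -0.05 and -0.02.

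Among the other vasoactive members, none was called. Nos3, the nitric oxide synthase of endothelium, had changes of 0.07, 0.28 and 0.50 (SE 0.20, limma adjusted p = 0.175). Ednrb, the endothelin receptor that clears endothelin in the lung, had changes of -0.66 (SE 0.27, limma adjusted p = 0.244), 0.31 and 0.01. Calcrl and Ramp2, which together form the adrenomedullin receptor, had changes of 0.03, 0.20 and -0.06 and 0.18, 0.15 and 0.22. S1pr1, the barrier-protecting receptor of sphingosine 1-phosphate, had changes of -0.19, 0.43 and -0.07.

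The 4 transcription factors were not called in limma, with 0 at an unadjusted p under 0.05 at any dose. Sox7 had the largest change of the 4 at 162 µg. It was 4.82, 3.89, 4.59, 3.66 and 4.60 in the controls and had a lowest, median and highest of 2.61, 4.14 and 4.47 at 162 µg, with 1 of 6 mice below all controls. Its change was -0.31 (SE 0.29, limma adjusted p = 0.668). Sox17 and Sox18 had changes of 0.09 and -0.09 at that dose, and Erg, which keeps endothelial identity, had a change of 0.22.

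Lyve1, the hyaluronan receptor of lymphatic vessels that some lung macrophages also carry, had the largest positive change of all members at 162 µg. Its log2 ratios were 5.65, 6.46, 6.55, 4.65 and 5.85 in the controls, and 5.94, 7.39, 7.01, 6.85 and 6.34 at 54 µg. At 162 µg the lowest, median and highest were 5.96, 6.97 and 8.32, and at 18 µg they were 2.82, 5.89 and 6.47. Above all controls lay 0 of 6 mice at 18 µg, 3 of 5 at 54 µg and 4 of 6 at 162 µg. The change was 1.20 (SE 0.49, limma adjusted p = 0.465) at 54 µg and 1.42 (SE 0.46, adjusted p = 0.0789) at 162 µg, and it was not called. At 162 µg it was called without 18 µg replicate 4 (1.21, adjusted p = 0.00396), 54 µg replicate 1 (1.55, adjusted p = 0.0481) or 54 µg replicate 3 (1.54, adjusted p = 0.0282). Prox1, the other lymphatic member, was well above background on 0 of 22 arrays. The median of 9 alveolar macrophage markers against the control mean ran from -0.10 to 0.08 in the controls, 0.07 to 0.57 at 18 µg and -0.29 to 0.83 at 54 µg. At 162 µg it ran from 0.33 to 0.73, with 7 of 9 higher and 1, Marco, called in limma. At 18 µg, where the change of Lyve1 was 0.05, 6 of 9 were higher and 1 was called. No markers of other lung macrophages were looked at, and the part of macrophages in the level of Lyve1 was not tested.

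More members were called between the highest and the lowest dose than between either of these doses and the controls. Called lower at 162 µg than at 18 µg were 4 of the 38 members, Apln, Vcam1, Cd34 and Kdr, where 1.65% of all genes above background were called lower. Called higher were 0 members in limma, where 3.33% of all genes were, and 7 members were higher and 7 lower at an unadjusted p under 0.05. Between 18 µg and 54 µg 0 members were called in limma, where 0.0183% of all genes were called higher and 0.0122% lower, with 5 members higher and 5 lower at an unadjusted p under 0.05. Sele, which passed the filter on background only through 54 µg, was among the higher members. Between 54 µg and 162 µg 0 members were called in limma, as were 0% of all genes higher and 0% lower, with 1 member higher and 4 lower at an unadjusted p under 0.05.

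Apln was lower at 162 µg than at 18 µg by a difference of -1.73 (SE 0.24, limma adjusted p = 0.00066), and 6 of 6 mice lay below all 18 µg mice, as for 1.05% of all genes. Vcam1, which binds a leukocyte integrin of Itga4 and Itgb1, was -0.10, 0.53, -0.16, 0.04 and -0.16 in the controls, with a lowest, median and highest of -0.23, 0.50 and 0.68 at 18 µg. At 54 µg it was 0.38, 0.52, -0.59, 0.54 and 0.41, and at 162 µg it had a lowest, median and highest of -0.85, -0.56 and -0.09. Below all 18 µg mice, and below all controls, lay 5 of 6 mice given 162 µg. The difference of Vcam1 between the 2 doses was -0.95 (SE 0.19, limma adjusted p = 0.00964). Against the controls Vcam1 had changes of 0.48 (SE 0.21, limma adjusted p = 0.272), 0.36 (SE 0.22, adjusted p = 0.746) and -0.46 (SE 0.21, adjusted p = 0.245) and was not called.

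Cd34, a sialomucin of capillary endothelium that fibroblasts and blood progenitors also carry, had log2 ratios of 1.23, 1.51, 1.44, 1.77 and 1.19 in the controls, and of 1.99, 1.5, 1.28, 1.17 and 1.88 at 54 µg. At 18 µg its lowest, median and highest were 1.27, 1.69 and 2.35, and at 162 µg they were 0.33, 1.05 and 1.60. Below all 18 µg mice lay 3 of 6 mice given 162 µg, and the groups overlapped. The difference was -0.79 (SE 0.21, limma adjusted p = 0.0385) for Cd34 and -0.59 (SE 0.14, adjusted p = 0.0285) for Kdr, where 4 of 6 mice lay below all 18 µg mice. On each of the 5 slides that held both doses the difference was negative for Apln, Vcam1, Cd34 and Kdr, with medians of -1.62, -0.97, -0.94 and -0.49. The calls of Apln and Vcam1 were kept with any 1 mouse left out, while that of Cd34 was lost in 12 and that of Kdr in 10 of 22 such fits, and all 4 were kept without control replicate 2.

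Second probes were on the array for 10 of the 39 members, Kdr, Vcam1 and Cd34 among them. Between 162 µg and 18 µg the second probe had differences of -0.42 (SE 0.18, adjusted p = 0.23) for Kdr, -0.27 (SE 0.15, adjusted p = 0.408) for Vcam1 and -0.39 (SE 0.18, adjusted p = 0.277) for Cd34 in limma. The sign was the same on both probes of each gene, and none of the 3 second probes was called. At 162 µg against control the 2 probes of Vcam1 lay on opposite sides of 0, at -0.46 and 0.32, and so did those of Cd34, at -0.41 and 0.14. Markers of other cells that can carry Vcam1 or Cd34 were measured too. The median of 4 mesothelial markers ran from -0.64 to 0.63 in the controls, -0.42 to 1.56 at 18 µg and -0.55 to 1.3 at 162 µg, with 4 of 4 higher and 0 called at 18 µg in limma (2 at an unadjusted p under 0.05). The median of 7 fibroblast markers ran from -0.29 to 0.31 in the controls, -0.79 to -0.01 at 18 µg and -0.91 to -0.22 at 162 µg, with 1 of 7, Col3a1, called lower at 162 µg. Their part in the differences of Vcam1 and Cd34 was not tested.

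**Figure D4:**
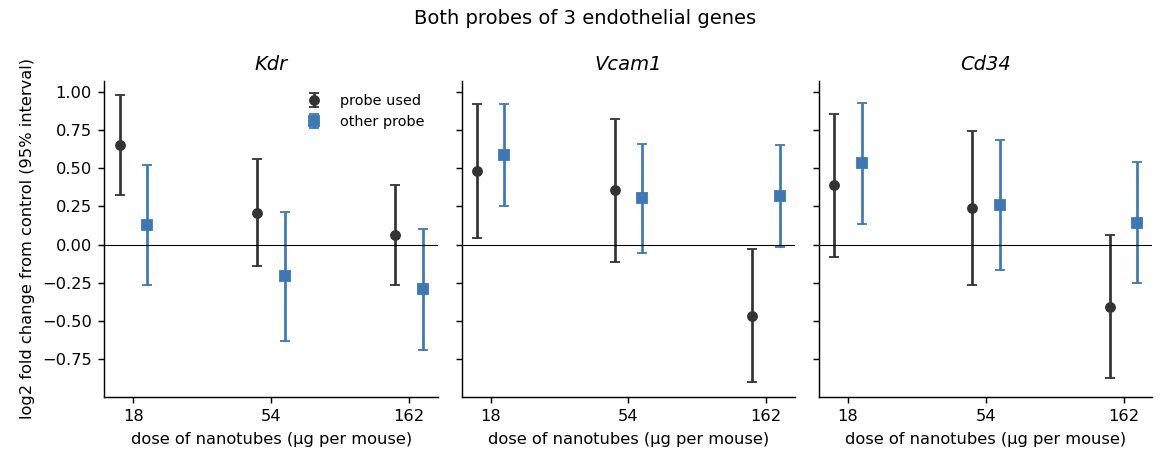
Log2 fold change from control with its 95% interval on both probes of Kdr, Vcam1 and Cd34, by dose. At 162 µg the probe used and the other probe of Vcam1 stand at -0.46 and 0.32, and those of Cd34 at -0.41 and 0.14.

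Genes of the same pathways outside the 39 were looked at by list, and the lists were chosen with earlier results of these data known. The counts and changes below are against the controls. Gja5, Ets1, Fibin, Vegfd, Tgfbr2, Id1 and Agtr1a, not called against the controls, were called between doses in limma. Between 162 and 18 µg 3.33% of all genes were called higher and 1.65% lower. Of all genes above background, 0.633%, 0.219% and 3.32% were called higher at 18, 54 and 162 µg. Called lower were 1.43%, 0.134% and 3.52%. Among 12 ligands and co-receptors of the growth factor receptors, 0 were called at 18 µg, 1 at 54 µg and 2 at 162 µg in limma, each higher, with 2, 3 and 4 at an unadjusted p under 0.05. Pgf, placental growth factor, which binds Flt1, was -0.35, -0.26, -0.29, -0.30 and -0.83 in the controls and 0.29, 0.66, 0.61, 0.05 and 0.73 at 54 µg. Its lowest, median and highest were -0.13, 0.11 and 0.40 at 18 µg and 0.55, 1.34 and 1.81 at 162 µg. Every exposed mouse lay above all controls. All mice of a dose did so for 1.42%, 1.51% and 3.72% of all genes at 18, 54 and 162 µg. The change at 18 µg was 0.53 (SE 0.13, limma adjusted p = 0.0481), below the 1.5-fold limit, followed by 0.88 (SE 0.14, adjusted p = 0.0141) at 54 µg and 1.70 (SE 0.13, adjusted p = 2.91e-06) at 162 µg. Angptl4, a secreted inhibitor of lipoprotein lipase, rose by 2.67 (SE 0.43, adjusted p = 0.00169) at 162 µg with 6 of 6 mice above all controls. The growth factors themselves were not called against the controls. Their changes at 162 µg were 0.01 for Vegfa, 0.03 for Vegfb, 0.29 for Vegfc and 0.94 (limma adjusted p = 0.0852) for Vegfd. Angpt2 (-0.08) was not called against the controls either.

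Of 18 vasoactive peptides and signalling genes, 7 were called higher at 162 µg, 1 at 54 µg and 0 at 18 µg in limma, where 5 had an unadjusted p under 0.05. The shares of all genes called higher at these doses were 3.32%, 0.219% and 0.633%. Adm, adrenomedullin, the ligand of Calcrl with Ramp2, was -2.81, -2.36, -2.76, -1.95 and -2.22 in the controls. At 162 µg Adm was -0.37, -0.75, -0.83, -1.23 and -0.70 in the 5 mice with a value, the outlier spot of 162 µg replicate 4 being left out. All lay above the controls, as for 3.72% of all genes at this dose. The change was 1.56 (SE 0.23, limma adjusted p = 0.000919). Calca, which encodes calcitonin gene-related peptide, another ligand of Calcrl, rose by 1.44 (SE 0.35, limma adjusted p = 0.0221), with 4 of 6 mice above all controls. Ramp3, an alternative partner of Calcrl, rose by 0.69 (SE 0.12, adjusted p = 0.0375) at 54 µg and 0.61 (SE 0.11, adjusted p = 0.00543) at 162 µg, without the outlier spots of 54 µg replicate 2 and 162 µg replicate 2. At 162 µg Ece1, which matures endothelin, rose by 0.97, the cyclooxygenase Ptgs1 by 1.63, the prostacyclin synthase Ptgis by 0.83 (n = 5) and Sphk1, which makes sphingosine 1-phosphate, by 1.59, with limma adjusted p of 0.0141, 0.00463, 0.0414 and 0.000382.

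**Figure D5:**
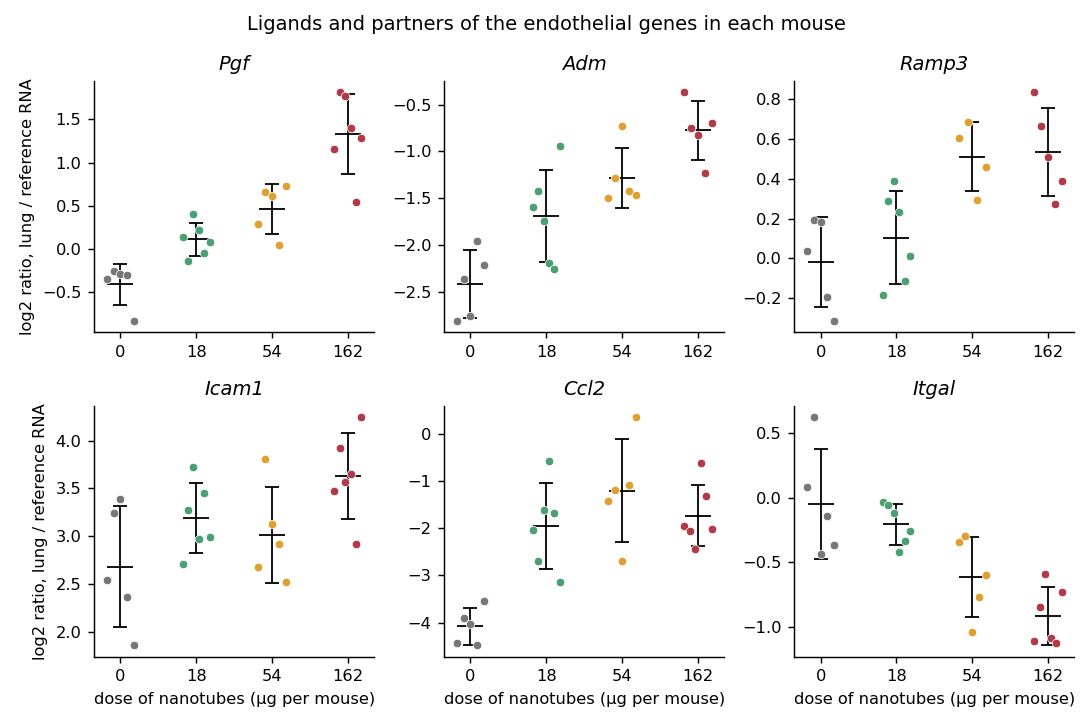
Log2 ratio of lung to reference RNA in each mouse for 6 genes outside the 39 that are ligands or partners of members or of their pathways, by dose in µg per mouse. Points are mice, and bars the mean and standard deviation over the mice with a value. For Pgf every exposed mouse lies above all controls, and for Itgal the 6 mice given 162 µg lie below them.

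Among 17 counter-receptors and other adhesion genes, Ccl2, a monocyte chemokine, was called higher at 54 µg (2.67, limma adjusted p = 0.0499) and 162 µg (2.21, adjusted p = 0.0123), and 0 of the 17 were called at 18 µg, where 3 had an unadjusted p under 0.05. Icam1, which endothelium shares with epithelium and leukocytes, was 2.55, 3.24, 3.39, 2.37 and 1.86 in the controls, and its lowest, median and highest were 2.92, 3.61 and 4.25 at 162 µg. Icam1 rose by 0.91 (SE 0.24, limma adjusted p = 0.0322), with 5 of 6 mice above all controls. Itgal, the leukocyte integrin chain that binds Icam1 and Icam2, was lower by a change of -0.78 (SE 0.15, limma adjusted p = 0.00547). Below all controls lay 6 of 6 mice, as for 4.49% of all genes. Without control replicate 2 the change of Itgal was below the 1.5-fold limit (-0.58, adjusted p = 0.0117). The medians of 6 B cell and 7 T cell markers had changes of -0.53 and -0.10 at 162 µg, with 2 and 1 called lower, and their part in the level of Itgal was not tested. Selplg, the ligand of P-selectin on leukocytes, had a change of -0.02 (adjusted p = 0.989) and Itga4, which binds Vcam1, of -0.42 (adjusted p = 0.225).

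Of 25 other endothelial genes above background, 0 were called against the controls at any dose in limma. At an unadjusted p under 0.05 there were 1, 2 and 3, and the median changes of the 25 were -0.04, 0.01 and 0.05. Of 16 genes of capillary, artery and vein subtypes, Bmx, a kinase of arterial endothelium, was lower at 18 µg (-0.85, adjusted p = 0.0275, 6 of 6 mice below all controls), a call lost without control replicate 2 (-0.71, adjusted p = 0.0557). All mice given 18 µg lay below all controls for 1.99% of all genes. Pdpn, a glycoprotein of lymphatic vessels and type I alveolar cells, was higher at 162 µg (1.04, adjusted p = 0.0067, 5 of 6 mice above all controls). Of 10 Notch genes, the ligand Dll1 was called higher at 162 µg (0.60, adjusted p = 0.0444), and of 18 BMP and TGF-beta signalling genes, the extracellular BMP regulator Bmper was called higher at 54 µg (0.94, adjusted p = 0.0276). Leaving out 1 mouse ended the call of Ramp3 at 54 µg in 15 of 22 fits, of Ccl2 at 54 µg in 17, of Dll1 in 17, of Ptgis in 12 and of Bmper in 7. Without control replicate 2, the calls of Ramp3 at 54 µg (0.69, adjusted p = 0.0629), Ccl2 at 54 µg (2.77, adjusted p = 0.062), Dll1 (0.66, adjusted p = 0.0523) and Ptgis (0.80, adjusted p = 0.0926) were lost. Those of Pgf and Bmper at 54 µg and of Pgf, Angptl4, Adm, Calca, Ramp3, Ece1, Ptgs1, Sphk1, Icam1, Ccl2 and Pdpn at 162 µg were kept, with limma adjusted p from 5.2e-06 for Pgf at 162 µg to 0.0417 for Calca and Bmper.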

How the data were processed

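Lung RNA of 22 mice was measured on two-colour arrays. Per the labels and file headers, the authors extracted spot intensities from the scanned slides with the software Feature Extraction 10.7.3.1. The deposited intensity columns (median Cy5 and Cy3 signals) were used here. The authors' deposited log2 table served as an alternative. How that table was centred is not given in the sources used here.

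The log2 ratio of Cy5 to Cy3 was normalized within each array by loess (span 0.3), outlier spots were left out, and limma 3.58.1 (R 4.3.3) fitted dose and slide over all 22 arrays (12 residual degrees of freedom), with Benjamini-Hochberg adjustment over 55681 probes. A gene counted as above background where Cy5 exceeded the 5% trimmed mean plus 3 SD of 308 negative control spots on 80% of the arrays of a group. The fit and the calls were run on data simulated from the same model with independent normal errors. That run did not cover normalization, outlier spots, the background filter or the choice of probe. The number of mice limits the precision. Every member is named, with values for called members (each mouse in groups of 5, and the lowest, median and highest in groups of 6) and, in a role group without a call, for the member with the largest change at 162 µg. Related genes are named where called or where they are ligands or partners of members. Values of related genes are given against the controls only, and not for genes called only between doses, apart from Vegfd. The members and lists were chosen with earlier results of these data known.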

Additional observations from a re-analysis of the deposited data

Results flagged for a closer look

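In groups of 4 to 10 mice, Dixon's test was used to find a lowest or highest mouse that stood apart from the others. It did so in 14 of 152 groups tested for the members and 8 of 64 for the related genes called against the controls. Chance gives about 1 such group in 20. All values are log2 ratios of lung to reference.

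Of the members, 54 µg replicate 1 was the lowest mouse for Esam (3.29), Robo4 (3.78) and Ptprb (6.53), and for the related gene Ece1 (0.98). In 54 µg replicate 3, Nos3 (0.91) and Vcam1 (-0.59) were the lowest of the group and the related gene Adm (-0.73) the highest, and Mmrn2 was the highest in 54 µg replicate 2 (5.70). At 18 µg, the lowest values were those of Clec14a (1.58) and Lyve1 (2.82) in replicate 4, Vcam1 in replicate 6 (-0.23) and Esam in replicate 1 (4.21). At 162 µg, Apln was the highest in replicate 4 (-0.52), still below all controls, while S1pr1 was the lowest in replicate 2 (2.07) and Sox7 the lowest in replicate 6 (2.61). In the controls Sox18 was the lowest in replicate 4 (4.13).

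Among the related genes, the controls held a highest value of Bmx in replicate 2 (3.38), a highest value of Bmper in replicate 3 (0.61), a lowest value of Pgf in replicate 5 (-0.83) and a lowest value of Ece1 in replicate 1 (-0.12). At 162 µg Bmper was the highest in replicate 4 (1.27) and Ptgis the lowest in replicate 3 (1.37).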

How the results depend on the processing

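No direction of a called member was turned by any alternative, and the calls of Apln were lost only without normalization. The 1 member called higher at 18 µg, Kdr, was not called (0 members) under median centring, no normalization, the Cy5 channel alone, the deposited log2 table, no slide term, a 2-fold limit, a fit of only the 2 groups compared, the probe brightest in Cy5, the mean of all probes, outlier spots kept, and, chosen after seeing the data, without the slides that hold no control. Members called higher at 162 µg were 0 under median centring, no normalization, the deposited table and the 2-fold limit, 2 with only the 2 groups compared, 3 in Cy5 alone and 3 without the slides that hold no control. Members called lower at 162 µg were 2 with normexp, 0 without normalization and 2 without those slides. At 54 µg, 1 was called higher without those slides and 3 with only the 2 groups compared. Between 162 and 18 µg, 2 were called higher in Cy5 alone, and those called lower were 1 under median centring, 0 without normalization, 2 in Cy5 alone, 1 at the 2-fold limit, 2 by the mean of all probes and 2 without those slides. The members' median at 18 µg was -0.20 under median centring and -0.36 without normalization, where that of all genes was -0.26 and -0.42. At 162 µg it was -0.16 and -0.18, where that of all genes was -0.18 and -0.21. The cause was not tested.

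With 1 mouse left out in turn, 0 to 1 members were called higher at 18 µg, as at 54 µg, and 0 to 3 at 162 µg. Called lower were 0 to 0 at both lower doses and 1 to 2 at the highest. Their median ran from 0.03 to 0.21, -0.02 to 0.19 and -0.06 to 0.18. Between 162 and 18 µg, 0 to 1 were called higher and 2 to 5 lower, with a median from -0.15 to 0.07. Deviations of mice from their group means had a median r of 0.17 over 31 pairs of the same number (-0.17 to 0.62). Over 150 pairs of other numbers the median r was -0.06, and over 24 pairs on the same slide it was 0.26. Whether the numbers pair the mice cannot be settled from these values. With the replicate block in place of slide, 1 member was called higher at 54 µg and 2 between 162 and 18 µg. Quantile normalization between arrays leaves the ratios as they are by construction. Dim probes such as Sele limit what the signal can show.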
